A study of Mus musculus with 6 samples.

Results

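The 2 libraries described here were made from neurons derived from intermediate progenitors (IPN) of the mouse embryonic cortex, 1 collected at embryonic day 13.5 (E13.5) and 1 at E16.5. They were chosen by label from the 6 libraries of the series, as the IPN libraries that were both prepared from 10000 sorted cells with amplification. All embryos were of the C57BL/6J strain and came from heterozygous Tbr2(Eomes)-GFP mice crossed with homozygous DCX-mRFP mice. Embryonic cortices were dissociated, and a fluorescence-activated cell sorter took cells carrying both colours as IPN, while those with the red colour alone formed the non-IPN population of the same cortices. The whole transcriptome was amplified with the Ovation RNA-Seq System V2 before an Illumina TruSeq library was built. The remaining IPN library, of E15.5, came from 1000000 cells without amplification and was not used here. The gate reads the fluorescent reporter proteins and not the transcripts of Eomes and of doublecortin, a microtubule protein of young neurons. The labels name no separate animals, so each age is 1 pool with no replicate, and no difference below has a replicate check or a p-value.

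In the developing cortex, radial glia line the ventricle and divide to give intermediate progenitors, which express the transcription factor Eomes, divide again and yield glutamatergic projection neurons. Neurons of the deep layers are born before those of the upper layers. Newborn neurons leave the cell cycle, migrate outward, extend an axon and later assemble synapses.

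The level of a gene is given as CPM, its deposited value per 1000000 of its library's total. The log2 ratio is the log2 of (CPM at E16.5 + 1) over (CPM at E13.5 + 1), so a positive value means a higher level at E16.5, and ratios of genes with low levels are understated. Ratios were read for the 7951 genes with a mean of at least 10 CPM over both libraries. A gene below 10 CPM at 1 age could thus pass through its level at the other age. Counts per direction in the lists below are therefore not independent of this filter. Genes were counted as higher or lower when the CPM values with the pseudocount were at least 2-fold apart. The ratio also varied with transcript length. Where it matters, a further value is therefore given after a length step, as the log2 ratio minus the median log2 ratio of the tested genes in the same of 10 length bins. By the 2-fold rule 996 genes (12.5%) were higher at E16.5 and 651 (8.19%) were lower, and the median log2 ratio was 0.01. The deposited values summed to 15472487 at E13.5 and 14620980 at E16.5. They had already been scaled, so the read depth is unknown and no counting interval can be given. Across the 7951 genes the log2 levels of both libraries had a Pearson r of 0.840, as a description over genes that are not replicates.

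The markers of the sort were read first. Eomes stood at 437 CPM at E13.5 and 98.4 CPM at E16.5 (log2 ratio -2.14). Dcx, the doublecortin gene, stood at 1392 CPM at E13.5 and 3269.6 CPM at E16.5 (log2 ratio 1.23). Both reporter genes were thus detected at both ages, with Eomes lower and Dcx higher at E16.5, and the Dcx ratio was 0.59 after the length step. Genes of blood, vessel and meningeal cells were near 0: the 16 microglia and macrophage genes summed to 10.3 CPM at E13.5 and 3.8 CPM at E16.5, the 17 endothelial and pericyte genes to 6.6 and 20 CPM, the 13 red blood cell genes found to 6.3 and 13.3 CPM, and the 14 meningeal and choroid plexus genes to 0.6 and 3.8 CPM. The 34 interneuron and GABA genes found summed to 946.5 and 2360.9 CPM, of which Zeb2, a transcription factor that projection neurons also express, made up 583 and 2154 CPM. Gad1 and Gad2, the enzymes that make GABA, were at 9.11 and 6.53 CPM at E13.5 and at 2.60 and 20.7 CPM at E16.5. The interneuron factors Dlx2 and Lhx6 were at 0.32 and 0.13 CPM at E13.5 and at 7.66 and 7.04 CPM at E16.5. Oligodendrocyte and astrocyte genes summed to 213.7 CPM at E13.5 and 42.3 CPM at E16.5, most of it from Slc1a2, a glutamate transporter, at 131 and 26.5 CPM, and Gja1, a gap junction protein also found in radial glia, at 66.4 and 5.40 CPM. The part of these other cell types in the results below was not tested.

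**Figure D1:**
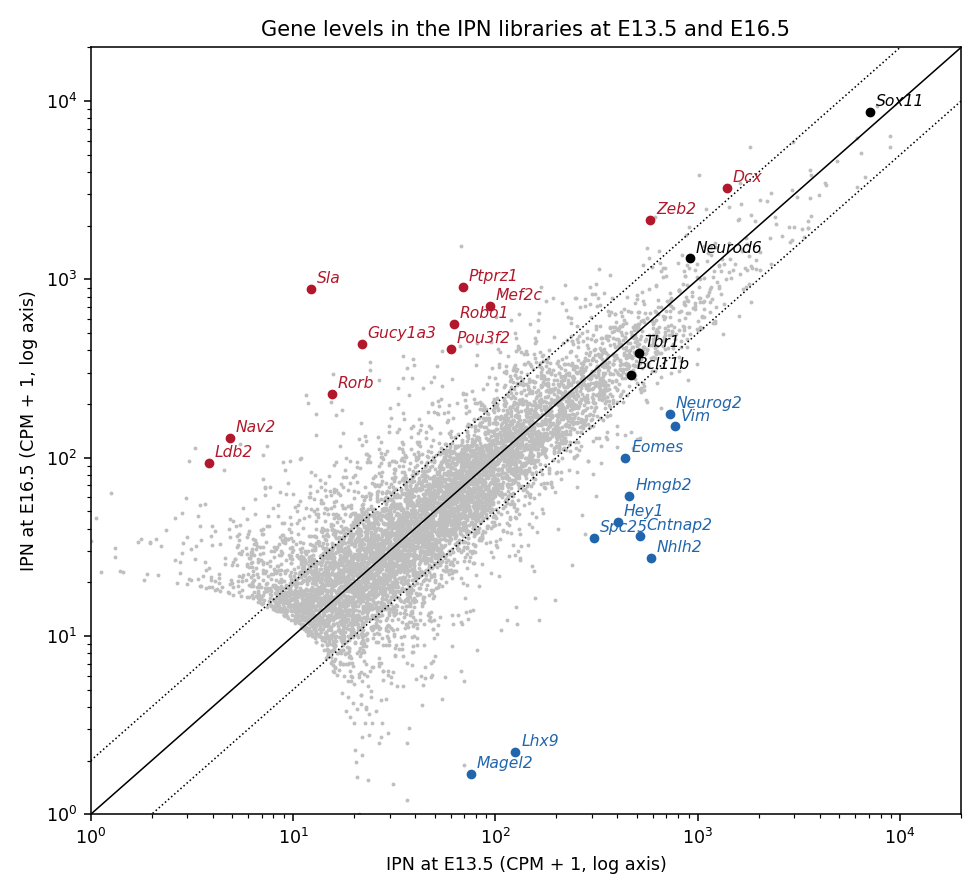
Each grey point is 1 of the 7951 genes, with its CPM + 1 in the IPN library of E13.5 on the horizontal log axis and of E16.5 on the vertical log axis; the solid line marks equal levels and the dotted lines 2-fold differences. Genes of the text that were higher at E16.5 are in red (Sla, Rorb, Dcx), genes that were lower in blue (Eomes, Nhlh2, Lhx9), and Tbr1, Bcl11b, Neurod6 and Sox11, within 2-fold, in black.

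Genes that mark intermediate progenitors were mostly lower at E16.5. Of 19 such genes, 15 reached 10 CPM, and 11 of these were at least 2-fold lower and 0 higher, against 8.19% lower and 12.5% higher among all genes; the median log2 ratio was -1.83. Neurog2, the proneural factor that starts glutamatergic differentiation, stood at 726 CPM at E13.5 and 175 CPM at E16.5 (log2 ratio -2.05). Dll1 and Dll3, ligands of Notch, went from 132 to 36.3 CPM (log2 ratio -1.83) and from 42.1 to 3.08 CPM (-3.40). Mfng, a glycosyltransferase that modifies Notch, was at 76.5 CPM at E13.5 and 24.6 CPM at E16.5 (log2 ratio -1.60). The antiproliferative gene Btg2 and the growth arrest gene Gadd45g had ratios of -1.92 and -2.20, and Mfap4, a matrix-associated protein, was at 55.1 CPM at E13.5 and 4.92 CPM at E16.5 (log2 ratio -3.24). Insm1, a zinc finger factor needed for the production of these progenitors, lay apart from them at 390.2 CPM at E13.5 and 543 CPM at E16.5 (log2 ratio 0.47). Hes6, Gas1 and Rcor2 also stayed within 2-fold, at -0.64, -0.28 and -0.29. In a bulk library, fewer cells of a type and less of a transcript in each cell cannot be told apart, here and in every result that follows.

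The early neurogenic factors that act next split by gene. Neurod1, which Neurog2 activates in newborn neurons, stood at 396 CPM at E13.5 and 114 CPM at E16.5 (log2 ratio -1.79), whereas its relatives Neurod2 and Neurod6, which persist in projection neurons, had ratios of 0.14 and 0.52. Nhlh1 and Nhlh2, basic helix-loop-helix factors of newly postmitotic neurons, were among the genes furthest below. Nhlh1 went from 33.9 to 4.24 CPM (log2 ratio -2.73) and Nhlh2 from 585 to 26.5 CPM (-4.41). Rnd3, a small GTPase of migrating neurons, was at 285 CPM at E13.5 and 94.4 CPM at E16.5 (log2 ratio -1.58). Of the 25 genes found on the list of newborn-neuron and migration genes, 21 reached 10 CPM, 7 were higher and 5 lower, with a median of 0.45; after the length step 3 were higher and 5 lower. Among the higher ones, the Reelin pathway adaptor Dab1 stood at 164 CPM at E13.5 and 644 CPM at E16.5 (log2 ratio 1.97), the Reelin receptor Vldlr at 34.2 CPM at E13.5 and 164 CPM at E16.5 (log2 ratio 2.23), and Flrt3, a membrane protein that binds Unc5 receptors, at 29.5 CPM at E13.5 and 165 CPM at E16.5 (log2 ratio 2.45). Lrp8, the other Reelin receptor, was within 2-fold at 0.34. The Netrin receptor Unc5d (1.16), the doublecortin-like kinase Dclk1 (1.06) and the guanine exchange factor Tiam2 (1.13) were past 2-fold before, and not after, the length step (0.52, 0.42 and 0.75).

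Most mitosis genes that reached 10 CPM were lower at E16.5, and most S phase genes stayed within 2-fold with negative ratios. Of 46 mitosis genes 42 reached 10 CPM, 41 of them with a negative ratio; 31 were at least 2-fold lower and 0 higher, with a median log2 ratio of -1.69. Of 37 S phase genes 25 reached 10 CPM, 23 of them with a negative ratio; 9 were lower and 0 higher, with a median of -0.85. The proliferation marker Mki67 stood at 285 CPM at E13.5 and 94.4 CPM at E16.5 (log2 ratio -1.58), and Top2a, a topoisomerase of dividing cells, at 151 CPM at E13.5 and 47.8 CPM at E16.5 (log2 ratio -1.64). Cyclin B1 (Ccnb1), which drives entry into mitosis, was at 155 CPM at E13.5 and 22.02 CPM at E16.5 (log2 ratio -2.76). The mitotic kinase genes Aurka, Bub1 and Ttk had ratios of -2.81, -2.83 and -2.78. Parts of the kinetochore were among the lowest: Spc25 went from 306 to 34.5 CPM (log2 ratio -3.11) and Cenpa, the centromeric histone, from 79.9 to 7.32 CPM (-3.28). Pcna, the clamp of the replication fork, stayed at 336 CPM at E13.5 and 236 CPM at E16.5 (log2 ratio -0.51). Of the helicase subunits, Mcm3 (-1.58) and Mcm6 (-1.21) were at least 2-fold lower and Mcm4 (0.23), Mcm5 (-0.48) and Mcm7 (-0.51) were not. Ncapd2, a condensin subunit, was the only mitosis gene of the 42 with a positive ratio, at 0.42.

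Since S phase and mitosis genes are known to share promoter elements, the promoters of 4 of the lower genes that hold them are shown as examples, taken from RefSeq on build GRCm38.p6 as 250 bases before to 50 bases after the gene's start. The searched letters were TTTCCCGC and TTTGGCGC for the E2F factors that drive S phase genes, TTTGAA for the cell cycle homology region (CHR) and CCAAT for the CCAAT box, on both strands. Mcm3 (chr1:20820263-20820562, minus strand) and Mcm6 (chr1:128359656-128359955, minus strand) are the S phase genes shown, with E2F letters in capitals. Ckap2l, a spindle protein that went from 26.2 to 1.71 CPM (chr2:129297163-129297462, minus strand), and Cenpa (chr5:30666636-30666935, plus strand) are the mitosis genes shown, with CHR and CCAAT letters in capitals.
Mcm3: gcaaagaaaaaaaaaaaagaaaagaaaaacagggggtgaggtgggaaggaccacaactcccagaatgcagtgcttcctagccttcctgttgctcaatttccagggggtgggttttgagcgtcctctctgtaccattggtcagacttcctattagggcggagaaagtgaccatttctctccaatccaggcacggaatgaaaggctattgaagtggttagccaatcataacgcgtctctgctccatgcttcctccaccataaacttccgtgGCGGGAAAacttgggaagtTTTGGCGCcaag
Mcm6: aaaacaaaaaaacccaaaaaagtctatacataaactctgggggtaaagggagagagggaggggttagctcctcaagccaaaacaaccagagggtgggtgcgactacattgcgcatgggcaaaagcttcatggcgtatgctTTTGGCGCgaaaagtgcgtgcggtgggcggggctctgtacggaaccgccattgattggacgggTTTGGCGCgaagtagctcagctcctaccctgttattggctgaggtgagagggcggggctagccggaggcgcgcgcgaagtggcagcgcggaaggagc
Ckap2l: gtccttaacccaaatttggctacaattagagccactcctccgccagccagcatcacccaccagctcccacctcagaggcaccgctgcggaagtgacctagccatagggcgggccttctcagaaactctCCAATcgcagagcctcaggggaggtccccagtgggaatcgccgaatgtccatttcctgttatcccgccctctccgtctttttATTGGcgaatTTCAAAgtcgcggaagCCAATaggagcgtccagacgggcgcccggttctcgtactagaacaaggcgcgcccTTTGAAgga
Cenpa: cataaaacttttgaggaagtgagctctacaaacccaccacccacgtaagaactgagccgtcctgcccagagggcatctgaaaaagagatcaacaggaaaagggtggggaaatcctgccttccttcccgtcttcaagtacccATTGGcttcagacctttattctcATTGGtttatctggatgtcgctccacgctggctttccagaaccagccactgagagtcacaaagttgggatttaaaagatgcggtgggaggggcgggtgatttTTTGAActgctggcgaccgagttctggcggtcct
Of the tested genes, 6316 had a promoter of this length in the table; 3.56% of them held an E2F match, 14% a CHR match and 43.9% a CCAAT match. Among the 36 mitosis genes with a promoter, 29 (80.6%) held a CHR match and 30 (83.3%) a CCAAT match, and 2 (5.56%) held an E2F match. Among the 19 S phase genes with a promoter, 6 (31.6%) held an E2F match, 13 (68.4%) a CCAAT match and 2 (10.5%) a CHR match. Of the 27 mitosis genes that were also at least 2-fold lower, 21 (77.8%) held a CHR match, a share close to that of the whole list. A match is a run of letters and not a shown binding site.

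Genes around cell cycle exit also went both ways. Of 20 genes 15 reached 10 CPM, 3 were higher and 3 lower, with a median of 0.14; after the length step 1 was higher and 3 lower. Cdkn1b, an inhibitor of cyclin-dependent kinases, stood at 16.6 CPM at E13.5 and 34.9 CPM at E16.5 (log2 ratio 1.03), which was 0.94 after the length step. Its relative Cdkn1c had a ratio of 0.04. Cyclin D2 (Ccnd2), a cyclin of the progenitor's G1 phase, was higher at 34.6 CPM at E13.5 and 75.8 CPM at E16.5 (log2 ratio 1.11), and 0.73 after the length step, although S phase and mitosis genes were lower. Rbl1, a pocket protein, was at -2.02, while Rb1 and Rbl2 were at 0.56 and 0.14.

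Radial glia genes went both ways. Of 29 genes, 17 reached 10 CPM, with 5 higher, 3 lower and a median of -0.31. Vim, an intermediate filament of radial glia, stood at 774 CPM at E13.5 and 149 CPM at E16.5 (log2 ratio -2.37), and Prom1, a membrane protein of their apical surface, at 69.8 CPM at E13.5 and 15.3 CPM at E16.5 (log2 ratio -2.12). The glial factors Pax6 and Sox2 were near the filter, at 27.1 and 21.9 CPM at E13.5 and at 21 and 12.7 CPM at E16.5. In the other direction, the receptor phosphatase gene Ptprz1 stood at 67.9 CPM at E13.5 and 904 CPM at E16.5 (log2 ratio 3.71) and Id2, an inhibitor of bHLH factors that neurons also express, at 613 CPM at E13.5 and 2246 CPM at E16.5 (log2 ratio 1.87). Nes, the nestin filament gene, stood at 2.00 CPM at E13.5 and 18.5 CPM at E16.5 (log2 ratio 2.70), Sox9 at 6.98 CPM at E13.5 and 21.2 CPM at E16.5 (log2 ratio 1.48) and the glutamate transporter gene Slc1a3 at 13.6 CPM at E13.5 and 60.3 CPM at E16.5 (log2 ratio 2.07). The Notch targets Hes1 and Hes5 lay below the filter at both ages, at 0.78 and 0.26 CPM at E13.5 and at 0.75 and 0.07 CPM at E16.5. Whether Ptprz1 or Id2 came from radial glia in the sort was not tested.

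Notch ligands and 1 target were lower, and several other parts of the pathway were not. Of 26 Notch pathway genes 13 reached 10 CPM, with 6 lower, 1 higher and a median of -0.64. Besides Dll1 and Dll3, the ligand gene Jag1 stood at 48.3 CPM at E13.5 and 9.92 CPM at E16.5 (log2 ratio -2.18). Hey1, a transcriptional repressor downstream of Notch, was at 401 CPM at E13.5 and 42.8 CPM at E16.5 (log2 ratio -3.20), and the neuronal membrane ligand gene Dner at 302 CPM at E13.5 and 123 CPM at E16.5 (log2 ratio -1.29). Rbpj, the DNA-binding partner of Notch, was within 2-fold at -0.45, and the receptor gene Notch2 at 0.59, or -0.05 after the length step. The receptor gene Notch1 lay below the filter on the mean, at 10.99 CPM at E13.5 and 4.58 CPM at E16.5 (log2 ratio -1.10). Mib1, the ubiquitin ligase that activates ligands, was the 1 higher gene, at 5.36 CPM at E13.5 and 20.9 CPM at E16.5 (log2 ratio 1.78).

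**Figure D2:**
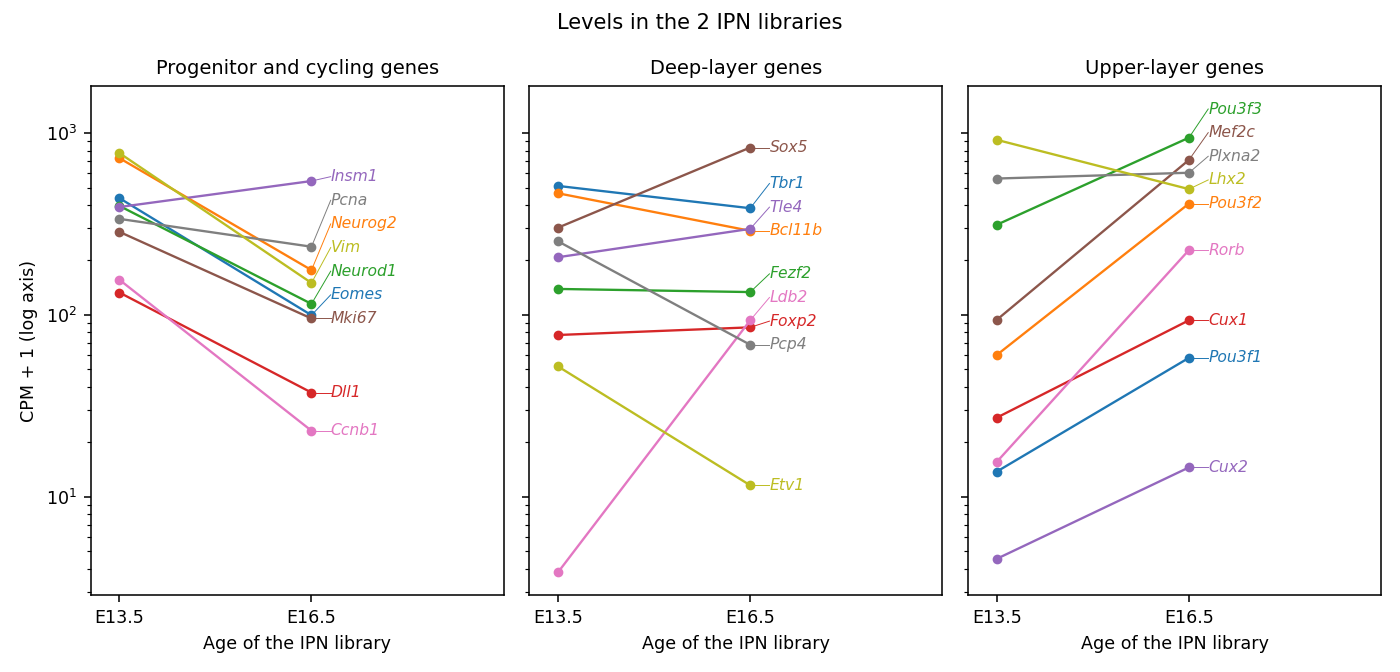
Lines join the CPM + 1 of a gene (log axis) in the IPN library of E13.5 and of E16.5, 1 library each, for 9 progenitor and cycling genes, 9 deep-layer genes and 9 upper-layer genes. Most lines of the left panel slope down, with Insm1 as an exception; the deep-layer panel holds lines in both directions, from Ldb2 (log2 ratio 4.60) to Etv1 (-2.17); and most upper-layer lines slope up, such as Rorb (3.87), with Lhx2 down (-0.90).

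Upper-layer genes were mostly higher at E16.5. Of 30 genes 22 reached 10 CPM, and 13 were at least 2-fold higher and 1 lower, with a median log2 ratio of 1.5. After the length step the list's median was 0.95, with 11 higher and 1 lower. The POU factors of upper-layer neurons were higher together: Pou3f2 was at 59.1 CPM at E13.5 and 408 CPM at E16.5 (log2 ratio 2.77) and Pou3f3 at 312 CPM at E13.5 and 941 CPM at E16.5 (log2 ratio 1.59). Pou3f1 had a ratio of 2.08. Mef2c, a factor of maturing neurons, stood at 92.9 CPM at E13.5 and 709.7 CPM at E16.5 (log2 ratio 2.92), and Rorb, a nuclear receptor of layer 4 neurons, at 14.5 CPM at E13.5 and 226 CPM at E16.5 (log2 ratio 3.87). Cux1 was at 26.2 CPM at E13.5 and 92.3 CPM at E16.5 (log2 ratio 1.78), and Cux2 lay below the filter on the mean with 3.55 CPM at E13.5 and 13.5 CPM at E16.5. The secreted factor Ptn, which binds the Ptprz1 receptor, stood at 1.94 CPM at E13.5 and 58.5 CPM at E16.5 (log2 ratio 4.34). Exceptions were Lhx2, a LIM factor that cortical progenitors also express, at 915 CPM at E13.5 and 489.8 CPM at E16.5 (log2 ratio -0.90), and Tmem178, the 1 lower gene, at 209.6 CPM at E13.5 and 82.6 CPM at E16.5 (log2 ratio -1.33).

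Deep-layer genes split. Of 26 genes 21 reached 10 CPM, with 6 (28.6%) higher, 4 (19%) lower and a median of 0.14, against 12.5% and 8.19% of all tested genes. After the length step 7 were higher and 6 lower, with a median of 0.13. Ldb2, Mc4r, Hs3st4 and Nr4a2, among the higher genes, were below 10 CPM at E13.5 and passed the filter only through E16.5. Factors that define deep-layer fates were within 2-fold between the ages: Tbr1, of corticothalamic neurons, stood at 510.1 CPM at E13.5 and 384 CPM at E16.5 (log2 ratio -0.41), and Fezf2, of subcerebral neurons, at 138 CPM at E13.5 and 132 CPM at E16.5 (log2 ratio -0.06). Bcl11b, which acts downstream of Fezf2, was at 464 CPM at E13.5 and 289 CPM at E16.5 (log2 ratio -0.69), and was past 2-fold only after the length step (-1.32). Sox5, which times the emergence of deep-layer subtypes, stood higher at 300.5 CPM at E13.5 and 830.5 CPM at E16.5 (log2 ratio 1.46). The LIM cofactor gene Ldb2 was at 2.84 CPM at E13.5 and 92.3 CPM at E16.5 (log2 ratio 4.60), and the melanocortin receptor gene Mc4r at 1.36 CPM at E13.5 and 38.1 CPM at E16.5 (log2 ratio 4.05). Lower genes were Etv1, an ETS factor of layer 5, at 50.9 CPM at E13.5 and 10.5 CPM at E16.5 (log2 ratio -2.17), Pcp4, a calmodulin-binding protein, at 252 CPM at E13.5 and 67.4 CPM at E16.5 (log2 ratio -1.89), and Zfpm2, a zinc finger cofactor, at 43.6 CPM at E13.5 and 19.8 CPM at E16.5 (log2 ratio -1.10). Neurod1, which the list also holds, was the other lower gene.

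Genes shared by projection neurons had a median of 0.52 over 23 of 25 at 10 CPM, with 8 higher and 2 lower. Sla, an adaptor protein that dampens receptor signalling, had the largest log2 ratio of the 7951 genes, at 11.2 CPM at E13.5 and 884 CPM at E16.5 (log2 ratio 6.18). The repressor Zfp238, needed for projection neuron differentiation, stood at 1610.4 CPM at E13.5 and 3453 CPM at E16.5 (log2 ratio 1.10), and at 0.84 after the length step. Bcl11a (0.35), Bhlhe22 (0.50) and Nfib (0.69) were within 2-fold. Slc17a6, the vesicular glutamate transporter of young neurons, was at 498 CPM at E13.5 and 126 CPM at E16.5 (log2 ratio -1.97). The guidance receptor gene Nrp1 stood at 129 CPM at E13.5 and 406 CPM at E16.5 (log2 ratio 1.65), and Cntn2, an axonal adhesion protein, at 103 CPM at E13.5 and 332 CPM at E16.5 (log2 ratio 1.69).

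Factors of early-born cells and of cortical regions were among the genes furthest down. Of 20 Cajal-Retzius genes 9 reached 10 CPM, with 6 lower and 2 higher. Reln, the secreted cue of those cells, stood at 613 CPM at E13.5 and 306 CPM at E16.5 (log2 ratio -1.001), and the factor gene Ebf3 at 43.5 CPM at E13.5 and 14.5 CPM at E16.5 (log2 ratio -1.52). Trp73, a defining gene of the type, was within 2-fold at -0.42, from 19.3 to 14.2 CPM. A930038C07Rik, an older name of Ndnf, was listed at 0 at E13.5 and at 32.9 CPM at E16.5. Of 27 dorsal patterning genes 15 reached 10 CPM, with 7 lower, 0 higher and a median of -0.90. Lhx9, a LIM factor of early dorsal neurons, had the lowest log2 ratio of all 7951 genes, at 124 CPM at E13.5 and 1.23 CPM at E16.5 (log2 ratio -5.81). The doublesex-related factors of the medial cortex were lower together: Dmrt3 was at 35.6 CPM at E13.5 and 1.5 CPM at E16.5 (log2 ratio -3.87), Dmrta1 at 21.9 CPM at E13.5 and 2.87 CPM at E16.5 (log2 ratio -2.56) and Dmrta2 at 37.5 CPM at E13.5 and 5.88 CPM at E16.5 (log2 ratio -2.48). The nuclear receptors of caudal identity Nr2f1 and Nr2f2 had ratios of -1.79 and -1.92. Emx1, present across the dorsal cortex, stayed at 0.52. Which part of the cortex each pool held is not given in the labels, so region and age cannot be told apart for these genes.

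Genes of early developmental timing had a median of -0.96 over 23 genes at 10 CPM, with 9 lower and 2 higher. Lin28b, which blocks let-7 processing and is typical of early tissue, stood at 21.9 CPM at E13.5 and 3.01 CPM at E16.5 (log2 ratio -2.52). Its partners in early RNA regulation, Igf2bp1 and Igf2bp2, had ratios of -1.36 and -1.65, while Igf2bp3 was at -0.73. Hmgb2, a chromatin protein of cycling cells, was at 458 CPM at E13.5 and 59.98 CPM at E16.5 (log2 ratio -2.91), and Hmga2 was near the 2-fold limit at -0.96 (-1.01 after the length step). Among imprinted genes, Magel2 went from 74.9 to 0.68 CPM (log2 ratio -5.49), its neighbour Ndn from 353 to 138 CPM (-1.35), and Grb10 from 265 to 46.4 CPM (-2.49). Plagl1, an imprinted zinc finger gene, was at 0.74 and Peg3 at 1.21 (0.57 after the length step). The growth factor receptors parted: Fgfr2 stood at 12.02 CPM at E13.5 and 133 CPM at E16.5 (log2 ratio 3.36) and Fgfr3 at 31.7 CPM at E13.5 and 9.99 CPM at E16.5 (log2 ratio -1.57).

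Transcription factors of the Nfi, Sox and Mef2 families and their neighbours in the list were partly higher, and this list depended on length. Of 31 factors 23 reached 10 CPM, with 11 higher and 2 lower; the median was 0.84, and 0.20 after the length step, with 10 higher and 3 lower. Nfix stood at 4.59 CPM at E13.5 and 28.9 CPM at E16.5 (log2 ratio 2.42), while its relatives Nfia and Nfib were within 2-fold at -0.25 and 0.69. Sox4 was at 1.75 CPM at E13.5 and 21.5 CPM at E16.5 (log2 ratio 3.04), and its close relative Sox11 at 7119 CPM at E13.5 and 8705 CPM at E16.5 (log2 ratio 0.29). Bcl6, a repressor that pushes progenitors to differentiate, was at 12.02 CPM at E13.5 and 174 CPM at E16.5 (log2 ratio 3.75). Zeb2, which times the output of cortical neurons, was at 583 CPM at E13.5 and 2154 CPM at E16.5 (log2 ratio 1.89). The myelin transcription factor family split, with Myt1l at 125 CPM at E13.5 and 468 CPM at E16.5 (log2 ratio 1.899), Myt1 at 332 CPM at E13.5 and 92.9 CPM at E16.5 (log2 ratio -1.82) and St18 at 164 CPM at E13.5 and 11.3 CPM at E16.5 (log2 ratio -3.74).

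Cytoskeletal and pan-neuronal genes leaned toward E16.5. Of 45 genes 41 reached 10 CPM, with 17 higher and 2 lower, a median of 0.65 and 0.59 after the length step. The tubulin genes Tubb2a and Tubb4a stood at 148 CPM at E13.5 and 326 CPM at E16.5 (log2 ratio 1.13) and at 12.6 CPM at E13.5 and 73.9 CPM at E16.5 (log2 ratio 2.46), whereas Tubb3, the neuron-specific one, was within 2-fold at 0.24. The neurofilament genes Nefl and Nefm had ratios of 2.49 and 1.70. Mtap1b, a microtubule-associated protein of growing axons, was at 1013 CPM at E13.5 and 3866 CPM at E16.5 (log2 ratio 1.93), and Dync1i1, a subunit of the dynein motor, at 15.2 CPM at E13.5 and 174 CPM at E16.5 (log2 ratio 3.42). Stmn4, a tubulin-binding stathmin, was at 16.3 CPM at E13.5 and 70.5 CPM at E16.5 (log2 ratio 2.05) although its transcript is short, while Stmn1, Stmn2 and Stmn3 were at -0.10, 0.22 and 0.30. Elavl4, an RNA-binding protein of new neurons, and Uchl1, a ubiquitin hydrolase, were the 2 lower genes, at -1.30 and -1.33, the latter -0.89 after the length step. Gap43, the growth cone protein, was at -0.39.

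Axon guidance genes went both ways. Of 41 slit, netrin and semaphorin pathway genes 30 reached 10 CPM, with 10 higher and 3 lower; the median of 0.59 was 0.18 after the length step, which left 6 higher and 6 lower. Robo1, a receptor of the Slit repellents, stood at 61.1 CPM at E13.5 and 562 CPM at E16.5 (log2 ratio 3.18), and Robo2 at 156 CPM at E13.5 and 465 CPM at E16.5 (log2 ratio 1.57), with 0.93 after the length step. The netrin receptors had ratios of opposite sign: Dcc, which mediates attraction, was at 752 CPM at E13.5 and 409 CPM at E16.5 (log2 ratio -0.88), with -1.52 after the length step, and Unc5c, which mediates repulsion, was at 8.21 CPM at E13.5 and 61.2 CPM at E16.5 (log2 ratio 2.76). Sema6d was the lowest of the list, at 514 CPM at E13.5 and 128 CPM at E16.5 (log2 ratio -2.00), and Sema6a was at -1.30. Sema3a, a secreted repellent, was at 44.4 CPM at E13.5 and 137 CPM at E16.5 (log2 ratio 1.61). Ephrins and Eph receptors had a median of 0.08 over 12 genes, with 2 higher and 2 lower, and 1 higher and 2 lower after the length step. Epha7 (1.37) and Ephb1 (1.44) were higher, and Efna4 (-1.10) and Efna5 (-1.47) lower, with Epha7 at 0.997 and Efna4 at -0.88 after the length step.

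Adhesion genes included some of the largest ratios in both directions. Of 54 genes 40 reached 10 CPM, with 21 (52.5%) higher and 1 (2.5%) lower, against 12.5% and 8.19% of all tested genes. The median was 1.19, or 0.71 after the length step with 14 higher and 3 lower among the 38 with a length. Ntm, Odz4, Cdh12 and Opcml were below 10 CPM at E13.5 and passed the filter only through E16.5. The count of higher genes is thus not independent of the filter, and with no filter beyond a value above 0 the median was 0.83. Chl1, a relative of the adhesion molecule L1, stood at 166 CPM at E13.5 and 901 CPM at E16.5 (log2 ratio 2.43), while L1cam was at 0.19. The teneurin genes Odz2, Odz3 and Odz4, which pair across synapses, had ratios of 3.70, 2.86 and 3.12. Ntm, a membrane-anchored adhesion protein, went from 0.39 to 22.2 CPM, and its relative Opcml was at 7.63 CPM at E13.5 and 63.3 CPM at E16.5 (log2 ratio 2.90). The cadherin gene Cdh12 was at 6.27 CPM at E13.5 and 66.2 CPM at E16.5 (log2 ratio 3.21), and the giant cadherin genes Fat3 and Fat4 were at 1.99 and 1.79. Cntnap2, a neurexin relative encoded by a very long gene, was the 1 lower gene, at 519.6 CPM at E13.5 and 35.5 CPM at E16.5 (log2 ratio -3.83), while the long genes Nav2 and Nav3, which bind microtubule ends, went from 3.88 to 128 CPM (log2 ratio 4.72) and from 2.07 to 95.1 CPM (4.97).

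Synaptic genes were more often higher than lower. Of 49 vesicle and release genes 33 reached 10 CPM, with 12 (36.4%) higher, 3 (9.09%) lower and a median of 0.49 (0.31 after the length step). Among all tested genes 12.5% were higher and 8.19% lower, so the lower share of release genes was close to that of all genes. Snap25, a membrane fusion protein, stood at 293 CPM at E13.5 and 901 CPM at E16.5 (log2 ratio 1.62), and Vamp2, its vesicle partner, at 8.01 CPM at E13.5 and 41.8 CPM at E16.5 (log2 ratio 2.25). The complexin gene Cplx1 was at 13.4 CPM at E13.5 and 64.5 CPM at E16.5 (log2 ratio 2.18). The synapsins parted, with Syn1 at 21.7 CPM at E13.5 and 59.5 CPM at E16.5 (log2 ratio 1.41), Syn3 at 52.5 CPM at E13.5 and 137 CPM at E16.5 (log2 ratio 1.37) and Syn2 at 66.6 CPM at E13.5 and 10.9 CPM at E16.5 (log2 ratio -2.50). Sv2b, a vesicle glycoprotein, was at 68.2 CPM at E13.5 and 18.7 CPM at E16.5 (log2 ratio -1.81). Of 46 synapse adhesion and scaffold genes found, 29 reached 10 CPM, with 12 (41.4%) higher, 1 (3.45%) lower and a median of 0.77 (0.62). Nlgn1, a partner of neurexins, stood at 16.5 CPM at E13.5 and 185 CPM at E16.5 (log2 ratio 3.41), and the scaffold Dlg2 at 7.88 CPM at E13.5 and 93.8 CPM at E16.5 (log2 ratio 3.42). Lrrtm3, another neurexin partner, was at 2.46 CPM at E13.5 and 53.3 CPM at E16.5 (log2 ratio 3.97), and Clstn2, a calsyntenin, at 25.7 CPM at E13.5 and 270.1 CPM at E16.5 (log2 ratio 3.34). Homer2 was the 1 lower gene, at 329.7 CPM at E13.5 and 116 CPM at E16.5 (log2 ratio -1.501).

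Receptor genes that reached 10 CPM had mostly positive ratios. Grin2b, Grik3, Grm5, Gabra5 and Glrb were below 10 CPM at E13.5 and passed the filter only through E16.5. The counts of positive and higher genes are thus not independent of the filter. With no filter beyond a value above 0 the medians were 0.93 for glutamate receptor genes and 1.02 for GABA receptor and chloride transporter genes. Of 29 glutamate receptor genes 11 reached 10 CPM, 9 of them with a positive ratio; 5 were higher and 1 lower, with a median of 0.99, and after the length step 5 were higher and 2 lower, with a median of 0.88. Grin2b, the NMDA receptor subunit of young neurons, stood at 2.52 CPM at E13.5 and 33.6 CPM at E16.5 (log2 ratio 3.30). Gria2, the AMPA subunit that limits calcium entry, was at 591 CPM at E13.5 and 1173 CPM at E16.5 (log2 ratio 0.99), just inside 2-fold, and at 0.35 after the length step. Neto2, an auxiliary protein of kainate receptors, was at 146 CPM at E13.5 and 564 CPM at E16.5 (log2 ratio 1.94), and Grik2, a kainate receptor subunit, was the 1 lower gene, at 133 CPM at E13.5 and 30.98 CPM at E16.5 (log2 ratio -2.06). Of 18 GABA receptor and chloride transporter genes 9 reached 10 CPM, 8 of them with a positive ratio; 6 were higher and 0 lower, with a median of 1.04, and after the length step 4 were higher and 0 lower, with a median of 0.96. Gabrb2, a receptor subunit, stood at 37.7 CPM at E13.5 and 279.7 CPM at E16.5 (log2 ratio 2.86). Slc12a2, the importer of chloride in young neurons, was at -0.07, and Slc12a5, the exporter of mature neurons, lay below the filter with 5.11 and 5.81 CPM.

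Ratios of voltage-gated channel genes that reached 10 CPM were also mostly positive. Of 51 potassium channel genes found 15 reached 10 CPM, all 15 with a positive ratio, and 8 were higher and 0 lower, with a median of 1.05 (1.12 after the length step). The filter is on the mean of both ages. Kcnq5, Kcnq3, Kcnv1, Kcna4 and Hcn3 were below 10 CPM at E13.5 and passed it only through E16.5, so the count of positive ratios is not independent of the filter. With no filter beyond a value above 0 the list's median was 0.77. Kcnq5 and Kcnq3, subunits of the current that damps repetitive firing, stood at 2.65 CPM at E13.5 and 54.2 CPM at E16.5 (log2 ratio 3.92) and at 1.16 CPM at E13.5 and 20.9 CPM at E16.5 (log2 ratio 3.34), and the modulatory subunit gene Kcnv1 at 5.49 CPM at E13.5 and 57.7 CPM at E16.5 (log2 ratio 3.17). Of 28 sodium and calcium channel genes 17 reached 10 CPM, 14 of them with a positive ratio. By the 2-fold rule 10 were higher and 1 lower, with a median of 1.08. After the length step 6 were higher and 1 lower, with a median of 0.59. With no filter beyond a value above 0 the median before the length step was 0.66. The sodium channel genes Scn2a1 and Scn3b went from 9.95 to 98.8 CPM (log2 ratio 3.19) and from 9.76 to 97.7 CPM (3.20). Cacna1e, the pore of the R-type calcium channel, was at 8.66 CPM at E13.5 and 94.9 CPM at E16.5 (log2 ratio 3.31), and Cacna2d2, an auxiliary subunit, was the 1 lower gene at -1.26. Of 40 calcium release and signalling genes 30 reached 10 CPM, with 14 higher and 1 lower (median 0.90). Itpr1, the calcium release channel of the endoplasmic reticulum, stood at 38.6 CPM at E13.5 and 329.7 CPM at E16.5 (log2 ratio 3.06), Ppp3ca, a calcineurin subunit, at 6.14 CPM at E13.5 and 75.1 CPM at E16.5 (log2 ratio 3.41), and Adcy1, a calcium-stimulated adenylyl cyclase, at 8.08 CPM at E13.5 and 84.3 CPM at E16.5 (log2 ratio 3.23).

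**Figure D3:**
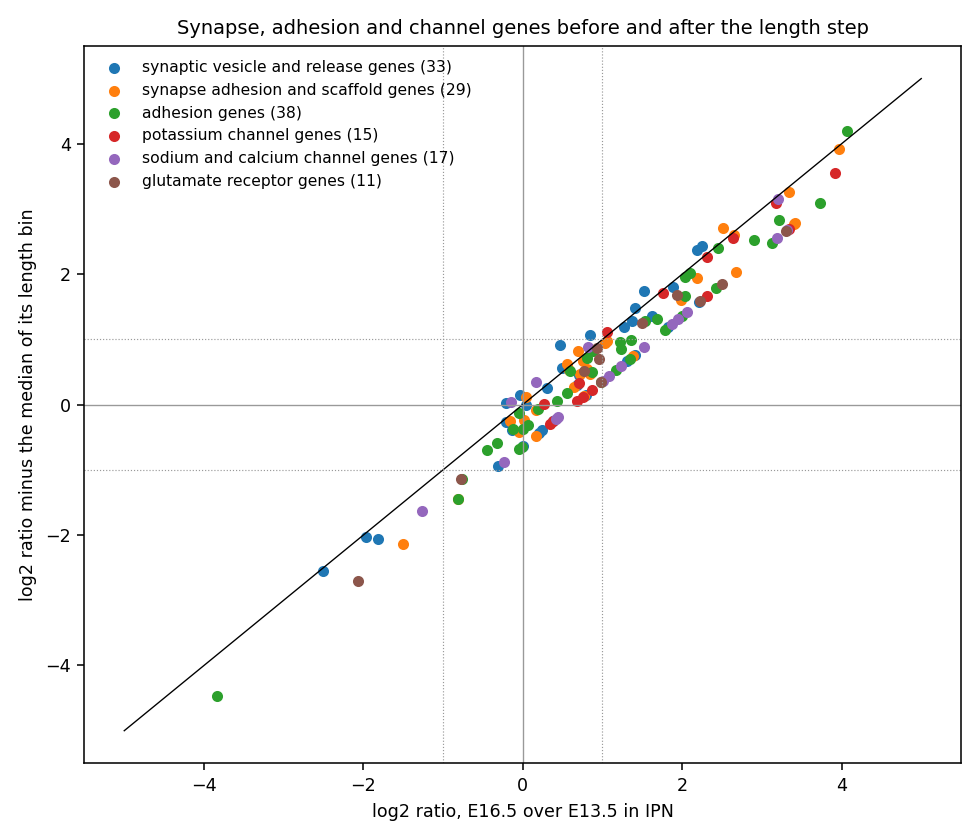
Each point is 1 synapse, adhesion or channel gene of at least 10 CPM with a known transcript length; the horizontal axis is its log2 ratio of E16.5 over E13.5 in IPN and the vertical axis the same ratio minus the median of genes in its length bin, with dotted lines at 2-fold and a solid line where both are equal. Most points lie below the solid line, and Cntnap2 lies at the lower left (-3.83 and -4.47).

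The log2 ratio was higher in genes with longer transcripts. Over the 7880 tested genes with a length in the reference, Spearman's rho between length and log2 ratio was 0.358, and it was 0.329 with the coding length and 0.319 with the span of the gene on the chromosome; genes are not replicates, and all of them share the same pair of libraries. Against the mean level in CPM, rho was -0.061. In 10 bins of 788 genes, the shortest transcripts (216 to 1595 bases) had a median log2 ratio of -0.45, with 1.4% of genes at least 2-fold higher and 14.3% lower. The longest (7420 to 123179 bases) had a median of 0.64, with 32.5% higher and 3.3% lower. The medians of the bins in between increased step by step, from -0.22 through 0.05 in the sixth bin to 0.37. Leaving out all genes of the lists above gave a rho of 0.344, so the trend was also present in genes of no list. The non-IPN libraries of the same ages, prepared in the same way, had a rho of 0.311. That value is over the 8495 genes with a length and a mean of at least 10 CPM in the non-IPN pair. Over the 7880 genes tested in IPN, the non-IPN bin medians ran from -0.40 to 0.85. The non-IPN E13.5 library held 49268.7 CPM of red blood cell genes against 6.3 CPM in the IPN library. Age, sort and library preparation all separate the 2 IPN libraries, so their parts in this trend cannot be told apart.

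**Figure D4:**
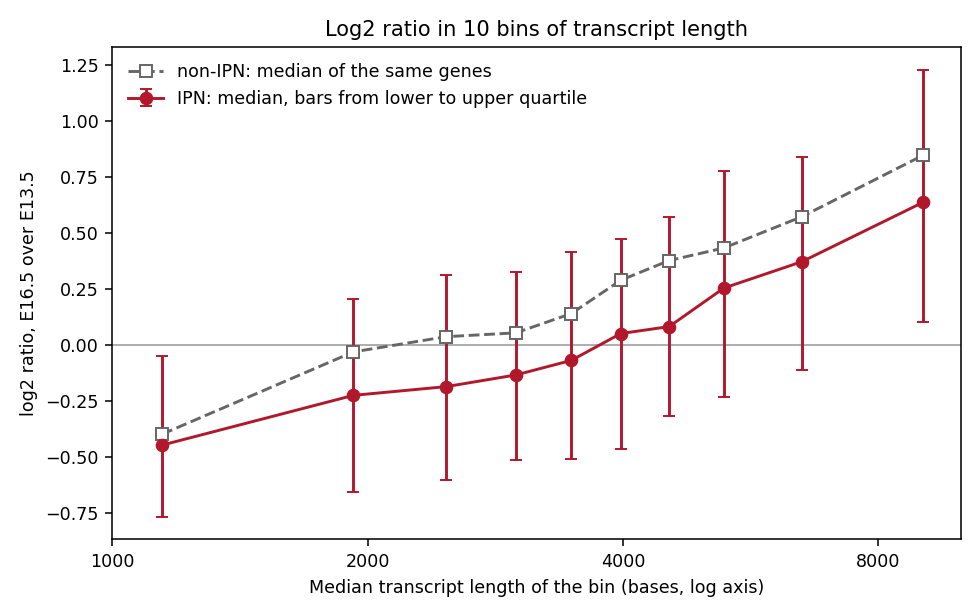
The median log2 ratio of E16.5 over E13.5 is plotted against the median transcript length (log axis) of 10 bins of 788 genes; red points are IPN with bars from the lower to the upper quartile of genes, and open squares are the medians of the same genes in the non-IPN libraries. Both lines climb from the shortest bin (-0.45 in IPN, -0.40 in non-IPN) to the longest (0.64 and 0.85).

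Subtracting each length bin's median left 839 genes (10.6%) at least 2-fold higher and 634 (8.05%) at least 2-fold lower, out of 7880. Lists of genes with short transcripts had medians near 0 after this step. The 79 cytoplasmic ribosomal protein genes all reached 10 CPM and had a median length of 1059 bases. Their median log2 ratio was -0.41, with 68 negative and 11 positive. Before the length step 1 of them was past 2-fold (Rps20, -1.06, or -0.997 after it). After the step 1 was past 2-fold (Rps15a, -1.205, or -0.95 before it), and the list's median was -0.04. The 77 respiratory chain genes went from a median of -0.51 to -0.11, with 6 lower and 1 higher past 2-fold before the step. Ndufv3, a subunit of complex I, was the lowest of them at 101 CPM at E13.5 and 30.5 CPM at E16.5 (log2 ratio -1.70). The 30 proteasome genes at 10 CPM went from -0.42 to -0.04. The median of intermediate progenitor genes was nearly as far down after the step as before, at -1.76 against -1.83. That of mitosis genes was further down after it, at -1.92 against -1.69. Subplate genes were at 1.42 after and 1.48 before the step, over 7 of 21 genes that reached 10 CPM. The 4 that were higher, Nr4a2, Pappa2, Slc8a2 and Gabra5, were below 10 CPM at E13.5 and passed the filter only through E16.5. With no filter beyond a value above 0 the subplate median was 0.56, so its height here depends on the filter.

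**Figure D5:**
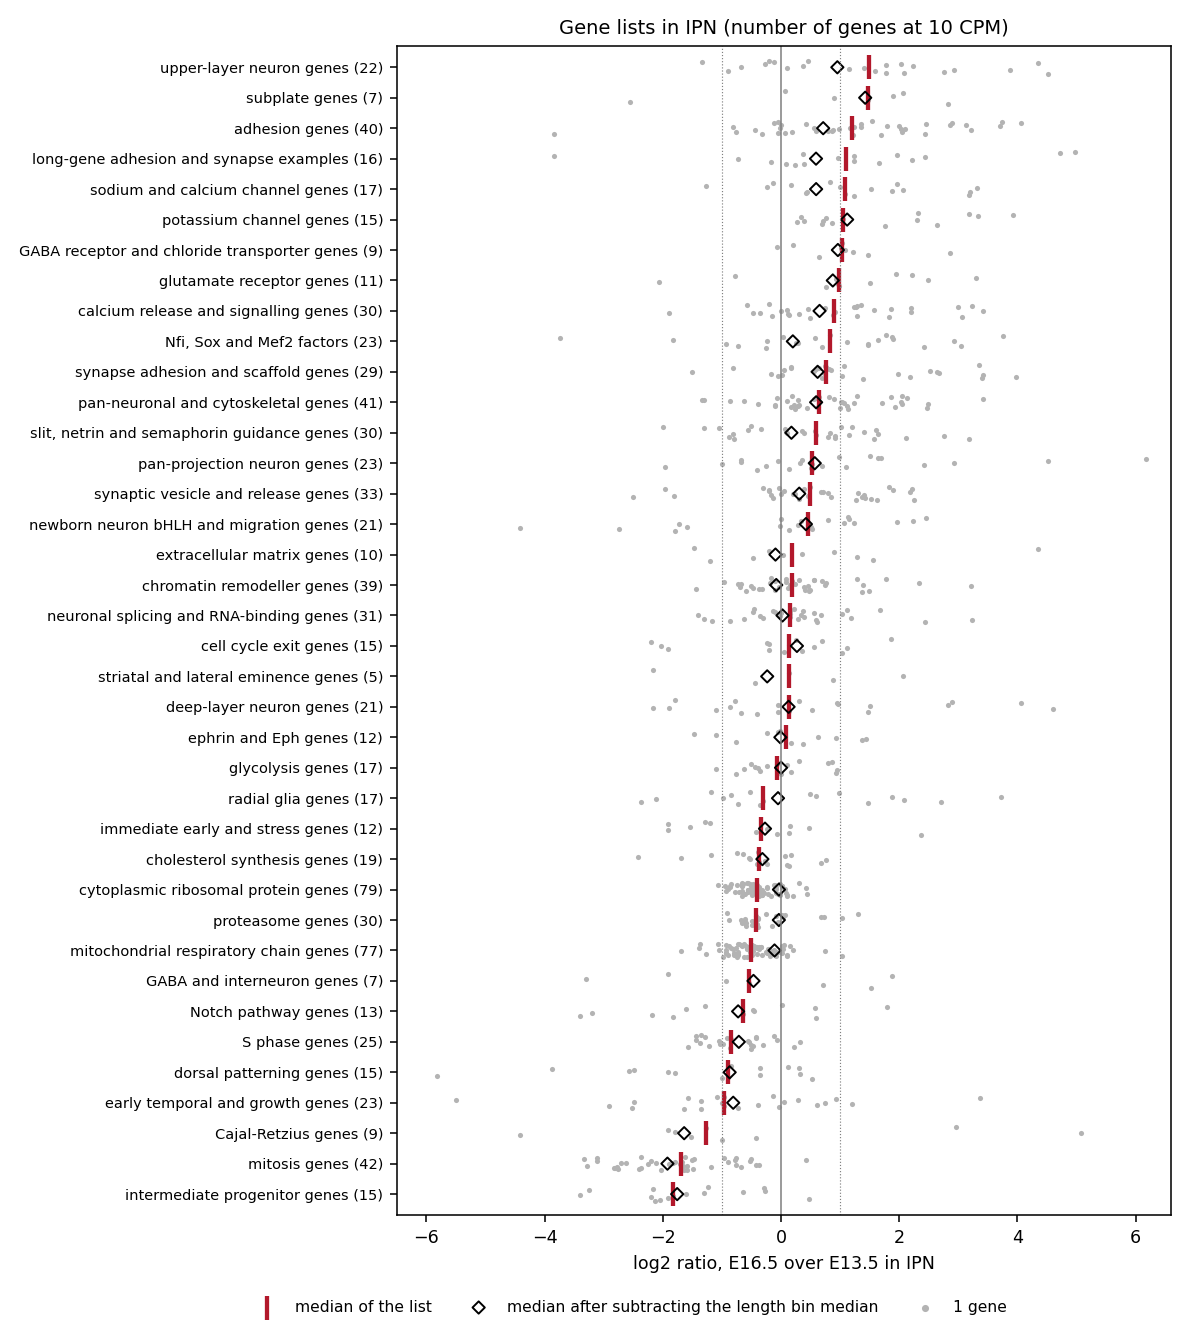
Each row is 1 gene list with at least 5 genes at 10 CPM, labelled with the number of its genes at 10 CPM, and each grey point the log2 ratio of E16.5 over E13.5 in IPN of 1 gene; red bars are list medians and open diamonds the medians after subtracting the median of the length bin. Among the lists drawn, intermediate progenitor and mitosis genes lie lowest by median (-1.83 and -1.69) and upper-layer genes (1.5) and subplate genes (1.48) highest, with diamonds at 0.95 and 1.42 for the last pair, and the diamonds of the ribosomal, respiratory chain and proteasome lists lie close to 0. With no filter beyond a value above 0 the subplate median was 0.56.

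Some genes went against the length trend, and they were picked after their values were seen. Among the shortest transcripts, Cdr1 stood at 191 CPM at E13.5 and 785 CPM at E16.5 (log2 ratio 2.04); the locus also gives an antisense transcript, and whether counting used strand is not given in the sources used here, so both cannot be told apart. Stmn4, described above, lies in the same bin. Among the longest transcripts, Cntnap2 was furthest below, followed by Pde1c, a calmodulin-dependent phosphodiesterase, at 113 CPM at E13.5 and 11.3 CPM at E16.5 (log2 ratio -3.21), and the zinc finger gene Zfp516 at 70.5 CPM at E13.5 and 12.7 CPM at E16.5 (log2 ratio -2.39). Slc1a2 (-2.26) and the kinesin gene Kif26b (-2.17) were next.

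The ends of the distribution, read among the 3794 genes with a mean of at least 50 CPM, held genes of several kinds. Among the 15 lowest, besides Lhx9, Nhlh2, Cntnap2, St18, Pde1c, Hey1, Spc25 and Hmgb2, were Rwdd3 (-3.63), the cyclin-dependent kinase subunit gene Cks2 (-3.45), the chemokine receptor gene Cxcr7 (-3.30), Acpl2 (-3.27), the ubiquitin-conjugating enzyme gene Ube2c (-3.12) and the G-protein signalling regulator gene Rgs2 (-2.90). Among the 15 highest, besides Sla, Rorb, Bcl6 and Nav2, were Ccbe1 (5.12), the adhesion gene Mdga2 (4.45), Gucy1a3 (4.31), Pdzrn3 (4.27), Fam19a2 (4.23), Kctd12 (4.10), Lmo7 (3.98), Igfbp3 (3.87), Hivep2 (3.84) and Cadm2 (3.73). Gucy1a3, a subunit of the nitric oxide receptor, went from 20.9 to 433 CPM, and Igfbp3, which binds insulin-like growth factors, from 6.14 to 103 CPM. The median transcript length was 6277 bases in the highest 15 and 3021 bases in the lowest 15. In the non-IPN libraries, 14 of the highest 15 and 9 of the lowest 15 were also at least 2-fold apart in the same direction; of all 7951 genes, 21.2% were at least 2-fold higher and 11.1% at least 2-fold lower there.

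Among all tested genes 12.5% were at least 2-fold higher and 8.19% at least 2-fold lower. In the same order, the shares were 0% and 5.88% of glycolysis genes at 10 CPM, and 0% and 15.8% of cholesterol synthesis genes. They were 17.9% and 2.56% of chromatin remodeller genes and 19.4% and 9.68% of splicing and RNA-binding genes. Immediate early and stress genes had 8.33% and 41.7%, of only 12 genes. The 17 glycolysis genes at 10 CPM had a median of -0.07, with 0 higher and 1 lower, Pgk1, a kinase of the pathway, at 519 CPM at E13.5 and 242 CPM at E16.5 (log2 ratio -1.09) and at -0.87 after the length step. Of 22 cholesterol synthesis genes found 19 reached 10 CPM, with 3 lower: Ebp (-2.42), Hsd17b7 (-1.69) and Dhcr7 (-1.18). Chromatin remodeller genes had a median of 0.18 over 39, with 7 higher and 1 lower; after the length step the median was -0.08, with 4 higher and 3 lower. Actl6a, the progenitor form of a BAF complex subunit, was the 1 lower gene at 130.0 CPM at E13.5 and 47.2 CPM at E16.5 (log2 ratio -1.44), while its neuronal counterpart Actl6b was at -0.37, and the helicase gene Chd3 was at 4.65 CPM at E13.5 and 51.3 CPM at E16.5 (log2 ratio 3.21). Of 36 splicing and RNA-binding genes found 31 reached 10 CPM, with 6 higher and 3 lower, and 3 higher and 3 lower after the length step. Rbfox1 stood at 79.95 CPM at E13.5 and 437.9 CPM at E16.5 (log2 ratio 2.44) and Nova2 at 2.91 CPM at E13.5 and 35.6 CPM at E16.5 (log2 ratio 3.23), while their relatives Rbfox3 and Nova1 were at -0.86 and -1.16. Of 31 immediate early and stress genes 12 reached 10 CPM, with 5 lower and 1 higher. The chaperone gene Hspa5 (-1.55) and the stress factor genes Ddit3 (-1.92), Ddit4 (-1.20) and Atf4 (-1.28) were lower, with Ddit4 at -0.97 after the length step, while Hspa8 and Jun were at 0.15 and -0.07. Among genes often used as references, Actb was at 0.41 and Gapdh at -0.63.

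Of the 1647 genes at least 2-fold apart in IPN, 1406 (85.4%) had a ratio of the same sign between the non-IPN libraries of these ages, against 5573 (70.1%) of all 7951 genes, and 56 were at least 2-fold apart in the opposite direction there. IPN and non-IPN cells of 1 age share their cortices and their preparation, so the shared direction is not independent of age or preparation. Side by side, the median of mitosis genes was -1.69 in IPN and -2.73 in non-IPN, that of upper-layer genes 1.5 and 1.69, and that of deep-layer genes 0.14 and 1.18. Intermediate progenitor genes had medians of -1.83 in IPN and -0.80 in non-IPN. With 1 library per population and age, the difference between the populations in any of these medians was not tested.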

How the data were processed

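RNA sequencing values of the IPN libraries of E13.5 and E16.5 were compared, with the non-IPN libraries of the same ages beside them for list medians, the length trend and single genes. The mouse build mm9 and the tools edgeR, SAMtools 0.1.18, TopHat 1.2.0 and CASAVA 1.9 are listed, per the submitters' processing notes. The role of each tool, the counter and the scaling method were, for these files, not given in the sources used here. The deposited values are whole numbers per gene symbol and were treated as a signal scaled by the authors, because the upper quartile over genes was 438 to 444 in all 4 libraries although totals differed. Of 20373 rows, 6 rows of 3 repeated symbols were dropped, which left 20367 genes; 25 symbols had been turned into dates.

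CPM, log2 ratios (pseudocount 1 CPM) and counts past 2-fold were computed with Python 3.11.15, pandas 2.3.3 and scipy 1.17.1, over genes with a mean of at least 10 CPM. With 1 library a side no test was run. Transcript lengths came from GENCODE M21 by symbol (7213 genes) or older symbol (667 genes), 7880 of 7951 (99.1%), and 10 bins of equal gene number were used. The length of a gene was that of its longest listed transcript, which need not be the one expressed here. Rps15a and Rps20 were thus given 5179 and 3706 bases, against a median of 1059 bases for cytoplasmic ribosomal protein genes. GENCODE M21 and the RefSeq promoters are on GRCm38, and no coordinates were converted from mm9. The 43 lists named 1274 genes, of which 1262 were found, 825 of them at 10 CPM; 12 were not analysed here.

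Named genes were Eomes and Dcx, the 15 largest log2 ratios per direction at 50 CPM, up to 5 genes per direction from each list, and a set of marker genes named whatever their values; other genes were chosen after their values were seen. The members and lists were chosen with earlier results of these data known. Alternatives covered the pseudocount, the filter, the scaling, the fold limit, the length measure and the length step. Some named genes are not reported here.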

Additional observations from a re-analysis of the deposited data

Results flagged for a closer look

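Some genes were at least 2-fold apart between the ages in both populations but in opposite directions, with 1 library for each population and age, and the difference between the populations was not tested. Of 56 such genes, the 10 given here are those that the rule for named genes picks. Lower in IPN at E16.5 and higher in non-IPN were Pde1c (-3.21 in IPN and 2.17 in non-IPN), the chemokine receptor gene Cxcr7 (-3.30 and 1.19), the kainate receptor gene Grik2 (-2.06 and 1.66), the ephrin gene Efna5 (-1.47 and 2.34), the calcium channel subunit gene Cacna2d2 (-1.26 and 1.505) and the deep-layer cofactor gene Zfpm2 (-1.10 and 2.09), all as log2 ratios of E16.5 over E13.5. Higher in IPN and lower in non-IPN were the progenitor filament gene Nes (2.70 and -1.83), Sox9 (1.48 and -3.46), the fibronectin gene Fn1 (1.55 and -1.56) and the cyclin gene Ccnd2 (1.11 and -1.19). After the length step Fn1 was at 0.91 and Ccnd2 at 0.73 in IPN, so neither was past 2-fold there. Nes and Sox9 were low in IPN at both ages, at 2.00 and 6.98 CPM at E13.5 and at 18.5 and 21.2 CPM at E16.5. The filter was on the IPN levels, and some non-IPN levels were low too. There Efna5 went from 1.22 to 10.25 CPM, Zfpm2 from 4.15 to 20.98 CPM and Pde1c from 5.43 to 28.05 CPM.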

How the results depend on the processing

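No paired analysis was possible because each age has 1 library, and for the same reason no library could be left out. With no filter beyond a value above 0, 2162 genes were higher and 1345 lower, the length rho was 0.209 and the subplate median 0.56. With a filter of 50 CPM, 361 genes were higher and 227 lower, and the medians were 0.34 for radial glia, -1.60 for Notch pathway, -1.79 for dorsal patterning, 1.95 for sodium and calcium channel, -1.92 for interneuron and 0.88 for striatal genes. The interneuron and striatal lists held only 7 and 5 genes at 10 CPM and fewer at 50 CPM. Their medians at 50 CPM were the ratios of single genes, Nr2f2 (-1.92) and Meis2 (0.88). A 4-fold limit left 278 higher and 129 lower. After the length step the median of the Nfi, Sox and Mef2 list was 0.20. Of 217 named genes past 2-fold, 0 changed sign in any alternative that kept them, which says nothing about their stability. No alternative shifted a ratio enough to reverse a gene past 2-fold, and the length bin medians ran only from -0.45 to 0.64. Of the 217, 22 were no longer past 2-fold after the length step and 14 with a pseudocount of 5 CPM. Another 5 were lost with the deposited values as they stand, which moved the median log2 ratio of all genes to -0.07. Of 38 list medians, the sign changed for 3 with no filter (ephrin and Eph, interneuron and striatal genes), for 1 with the deposited values (ephrin and Eph genes) and for 4 after the length step (ephrin and Eph, chromatin remodeller, striatal and extracellular matrix genes); of the 36 left at 50 CPM it changed for 2 (radial glia and deep-layer genes). The gene span as length and the trend without list genes were chosen after seeing the data. The read depth is unknown, so the precision of single low values cannot be given.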

Other observations

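Gene families outside the lists were looked at after the values were seen, by the start of their symbols. Mitochondrial ribosomal protein genes had mostly negative log2 ratios of E16.5 over E13.5. Of the 42 Mrpl genes at 10 CPM 35 were negative and 7 positive, with a median of -0.52, and 7 (16.7%) were at least 2-fold lower and 0 higher. Of the 25 Mrps genes 19 were negative and 6 positive, with a median of -0.43, and 3 (12%) were lower and 0 higher, against 8.19% lower among all tested genes. After the length step these medians were -0.17 and -0.24.

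The clustered protocadherins, cell surface proteins that give neurons an identity, differed by cluster. The 14 alpha genes (Pcdha) at 10 CPM all had positive ratios, with a median of 0.72 and 0 past 2-fold. The 5 beta genes (Pcdhb) were also positive, with a median of 0.90 and 2 past 2-fold. The 22 gamma genes (Pcdhg) had 11 positive and 11 negative ratios and a median of 0.00. Genes within the alpha and gamma clusters share their last exons, so their reads cannot be assigned to single genes with certainty and the members are not independent. The 242 zinc finger genes with names that begin with Zfp had a median of 0.23, with 40 (16.5%) higher and 16 (6.61%) lower, close to the 12.5% and 8.19% of all tested genes. The 21 ankyrin repeat genes (Ankrd) had a median of 0.77, with 8 (38.1%) higher and 2 (9.52%) lower.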
